A study of Mus musculus with 8 samples.

Results

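The genes described here are the membrane carriers of 5 solute carrier families that move bile acids, organic anions and cations, small peptides and monocarboxylates: Slc10a, Slc15a, Slc16a, Slc22a and Slco. They were chosen by symbol alone, with the most counted transcript kept for each symbol, which gave 60 genes among the 20377 symbols measured: 7 of Slc10a, 5 of Slc15a, 14 of Slc16a, 19 of Slc22a and 15 of Slco. RNA was sequenced from 2 populations of bile duct cells of wild type C57BL/6 mice, ST14high and ST14low, with 4 libraries each. Both populations come from non-parenchymal liver cells that bind MIC1-1C3, an antibody to duct cells, lack surface CD26 and are not blood cells. They differ in the surface level of ST14 (matriptase, an epithelial membrane protease). The age and sex of the mice, and whether libraries come from separate or pooled animals, are not given in the labels, so every p-value measures the spread between libraries, which may be technical.

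Bile acids circulate between the liver and the gut. Hepatocytes take them up from blood through the sodium-driven carrier Slc10a1 (NTCP) and through organic anion carriers of the Slco family such as Slco1b2, and secrete them into bile. Duct cells line the channels through which bile leaves the liver, and take part of the bile acids back through the apical carrier Slc10a2 (ASBT). The Slc22a carriers move organic cations, anions and carnitine, the Slc15a carriers small peptides and histidine, and the Slc16a carriers lactate, pyruvate, aromatic amino acids or creatine.

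With 1 transcript per gene, the libraries held 17418202 to 42769988 counts in ST14high and 6398307 to 31011678 in ST14low. Levels below are CPM, counts relative to the library total, scaled by edgeR's TMM library factors. Comparisons between genes use the deposited RPKM, which also divides by transcript length. All 16 duct cell markers listed were detected in every library, with sums of 18829 to 28347 CPM in ST14high and 21789 to 30814 CPM in ST14low. The St14 transcript itself spanned 286 to 354 CPM in ST14high and 278 to 391 CPM in ST14low, so the populations overlapped. Genes of other cells were present too. The 20 hepatocyte genes, all above 0 in each library, summed to 6222 to 14983 CPM in ST14high and 10654 to 17869.9 CPM in ST14low. The sums were 1010.4 to 3569 and 461 to 886 CPM for 16 mesenchymal and mesothelial genes, 21.6 to 1445 and 312 to 1300.2 CPM for 13 endothelial genes, 243 to 374 and 373 to 999.6 CPM for 13 macrophage and dendritic cell genes, and 0.0708 to 17.0 and 10.2 to 38.7 CPM for 12 lymphocyte genes. Single genes weighed in some of these sums. Csf1r held 161 to 312 CPM of the macrophage and dendritic cell sum in every library. Gpm6a, Rgs5 and Reln held 133 to 243, 115 to 351 and 67.0 to 137 CPM of the mesenchymal and mesothelial sum. ST14high replicate 1 stood apart. It held the highest mesenchymal and endothelial sums of all 8 libraries and 10664 CPM of 13 pancreatic acinar genes, against 1566 CPM in ST14high replicate 2 and at most 119.5 CPM elsewhere. In these bulk libraries, fewer cells of a type and less RNA per cell cannot be told apart.

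Of the 60 carriers, 39 had enough counts to be tested, 12 had a few counts and 9 had none. The 9 without a count in any library were Slc10a4, Slc22a6, Slc22a13, Slc22a16, Slc22a19, Slc22a20, Slco6b1, Slco6c1 and Slco6d1. The untested 12 were Slc15a1, Slc15a5, Slc16a14, Slc22a2, Slc22a3, Slc22a7, Slc22a8, Slc22a12, Slc22a14, Slco1c1, Slco4a1 and Slco5a1, with 1 to 298 counts over all libraries. The number of carriers at 0 was highest in ST14high replicates 3 and 4, with 20 and 22 of 60, although these held the most counts of the 8 libraries. It was 11 to 16 in the other 6 libraries, and 16 in ST14low replicate 3, the shallowest. Over all 20377 symbols the same 2 libraries also had the most genes at 0, 6237 and 6504, against 4385 to 5502 in the others.

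Among the carriers with the highest level per transcript length were Slco3a1 at 56.1 ± 9.61 RPKM (mean ± SD, n = 8) and Slc16a12 at 45.9 ± 11.1 RPKM. Their ranges over the libraries overlapped, and their order within each library was not compared. Slc22a18 was at 27.9 ± 2.57 RPKM and Slco2a1 at 25.3 ± 27.2 RPKM, whose mean was raised by 1 library. Lower than these, the bile acid carriers Slc10a2 and Slc10a1 were at 7.48 ± 5.66 and 6.01 ± 4.20 RPKM, and the organic anion carriers Slco1b2 and Slco1a1 at 1.66 ± 1.62 and 1.16 ± 0.844 RPKM. Slco1a1 is outside the rule by which genes were named and was chosen after its values were seen.

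**Figure D1:**
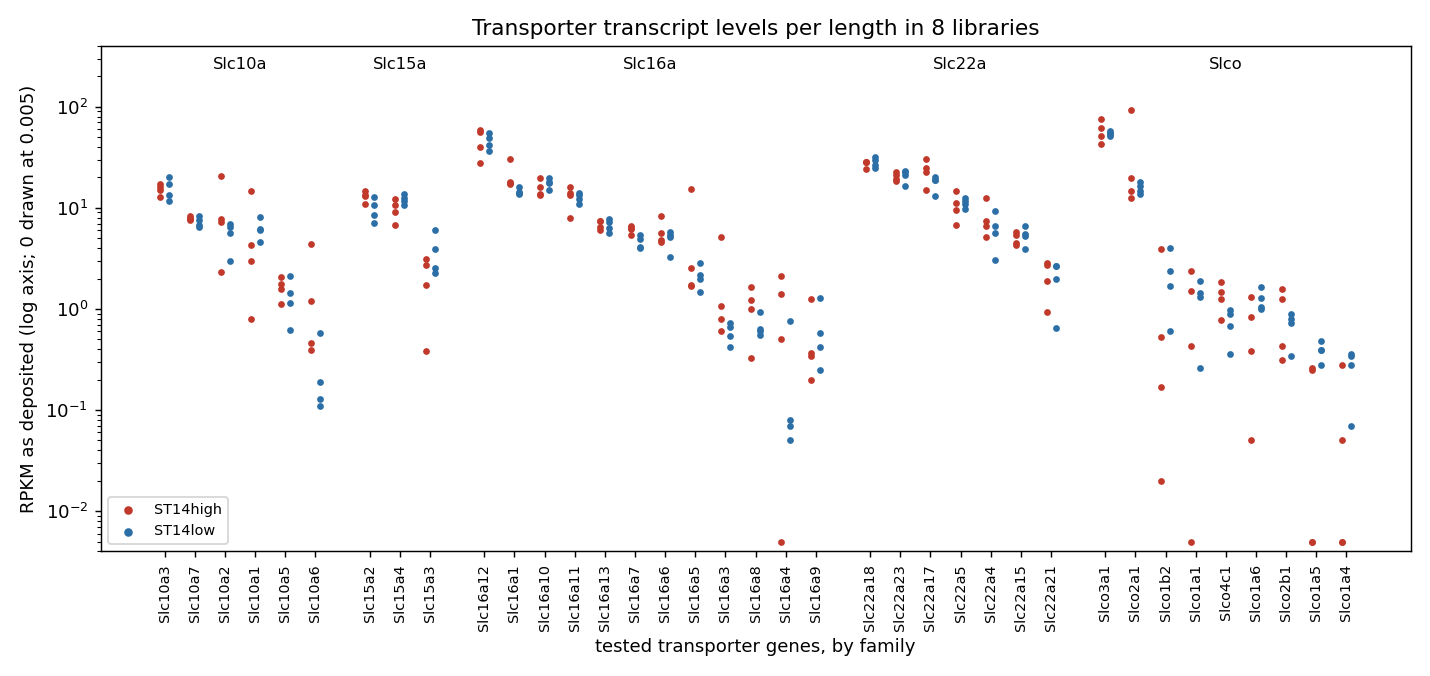
RPKM as deposited (log axis, 0 drawn at 0.005) of tested carriers, grouped by family and ordered by mean; each point is 1 library, red for ST14high and blue for ST14low. Slco3a1 and Slc16a12 are highest, and the Slco1a and Slco1b carriers are low and spread widely between libraries.

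No carrier passed an adjusted p of 0.05 in edgeR's quasi-likelihood test, 0 of 39, as for all genes (0.0% of 13749). The smallest adjusted p among the carriers was 0.396, for Slc10a6. DESeq2's Wald test called 0 of the 36 carriers to which it gave an adjusted p, where it called 1.72% of all genes. It gave no p-value to Slc16a3, Slc16a5 and Slco2a1, all highest in ST14high replicate 1, so its result does not cover them. Limma's voom test called 0 of 39. Without ST14high replicate 1, edgeR called 0 of 40. At an unadjusted p under 0.05 there were 5 carriers, 12.8%, where 9.56% of all tested genes were. Without ST14high replicate 1 there were 2, and without ST14high replicate 4 there were 9. Of the 5 found with all libraries, 4 had the higher values in ST14high (Slc10a6, Slc15a2, Slc16a1 and Slc16a3), which is 10.3% of the carriers and 6.89% of all genes, and 1 had the lower, 2.56% of the carriers and 2.68% of all genes. The 2 populations did not overlap in 1 carrier, Slc16a1, which is 2.56% of the carriers, where 6.42% of all genes did not overlap and 4.09% lay wholly higher in ST14high. The median log2 fold change (ST14high over ST14low) was 0.046 over the 39 carriers and 0.0023 over all genes tested, and 22 carriers were above 0 (56.4%, where 50.3% of all genes were). Without ST14high replicate 1 the medians were 0.058 and -0.015, and 22 of 40 carriers and 47.8% of all genes were above 0. By family the median was 0.24 for 6 Slc10a, -0.30 for 3 Slc15a, 0.29 for 13 Slc16a, -0.021 for 8 Slc22a and -0.18 for 9 Slco genes. Single libraries moved these medians. With 1 library left out they lay between 0.088 (without ST14high replicate 1) and 0.365 (without ST14low replicate 3) for Slc10a, -0.397 (without ST14high replicate 1) and -0.155 (without ST14high replicate 4) for Slc15a, and 0.096 (without ST14high replicate 4) and 0.39 (without ST14high replicate 2) for Slc16a. They changed sign for Slc22a, from -0.112 (without ST14low replicate 2) to 0.127 (without ST14high replicate 4), and for Slco, from -0.368 (without ST14high replicate 2) to 0.090 (without ST14low replicate 1).

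**Figure D2:**
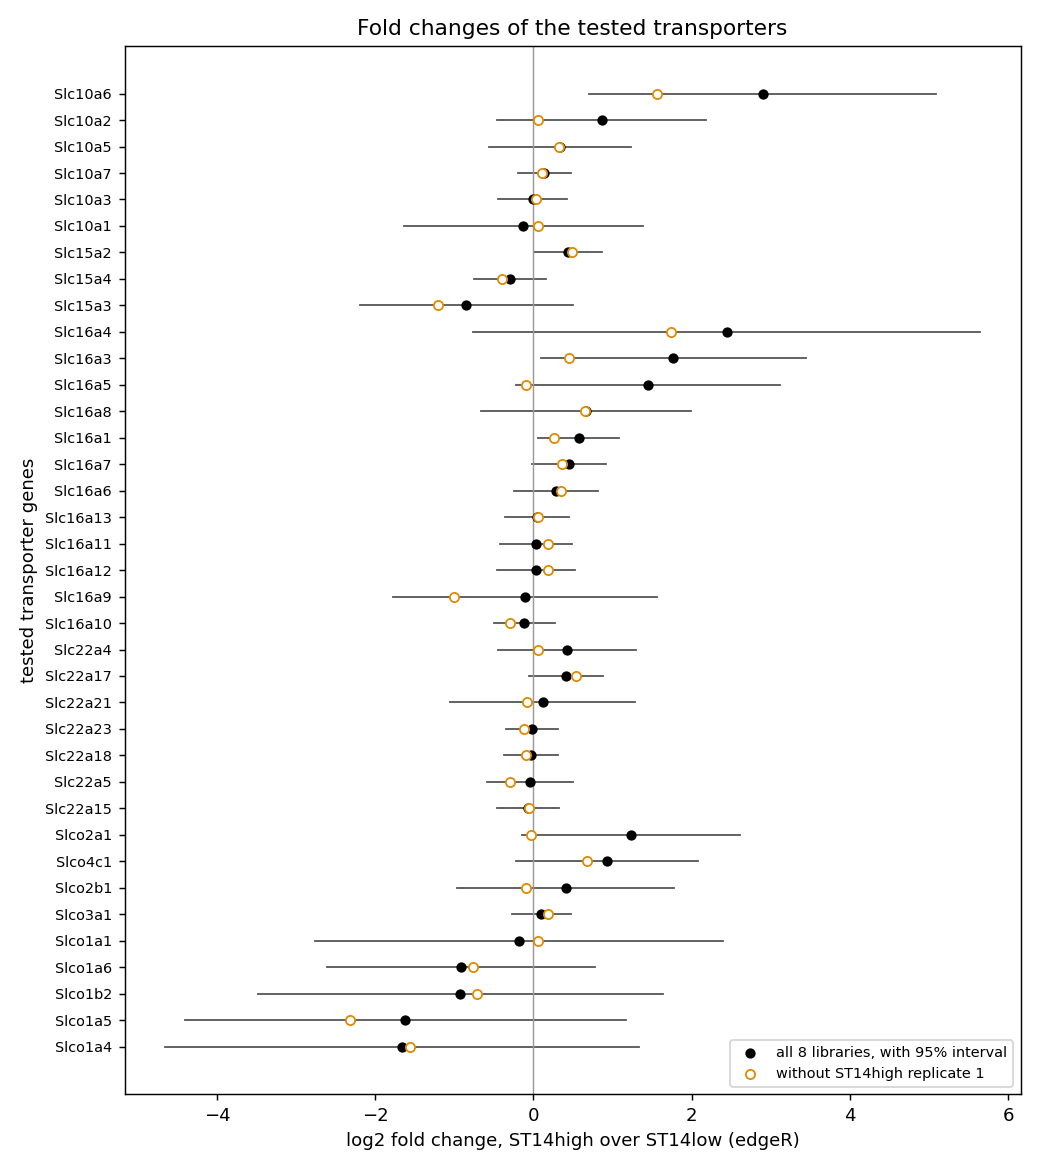
Log2 fold changes (ST14high over ST14low, edgeR) of tested carriers; black points are all 8 libraries with their 95% interval, open points leave out ST14high replicate 1. The intervals are narrow for most abundant carriers and wide for the Slco1a carriers, Slco1b2, Slc10a6 and Slc16a4. Slco2a1, Slc16a5 and Slc10a2, with means of at least 10 CPM, also have wide intervals, and their open points lie near 0.

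Of the 2 sodium-driven bile acid carriers, Slc10a2 (ASBT; chromosome 8, 5085622 to 5105232 in mm9, as listed in the files) is the one known from the apical membrane of duct cells. It was at 31.8, 10.5, 10.2 and 3.18 CPM in ST14high replicates 1 to 4 and at 4.13, 7.99, 9.72 and 8.82 CPM in ST14low replicates 1 to 4. One library, ST14high replicate 1, lay at over 2 times any other, and ST14high replicate 4 was the lowest of all 8. The log2 fold change was 0.86 (SE 0.59; edgeR adjusted p = 0.652) and 0.064 without ST14high replicate 1. The other 3 ST14high libraries reach both below and above the ST14low range. Slc10a1 (NTCP; chromosome 12, 82054171 to 82069066), the uptake carrier of hepatocytes, was at 4.93, 6.17, 1.20 and 21.6 CPM in the ST14high libraries and 12.1, 9.38, 8.95 and 6.69 CPM in the ST14low libraries. The ST14high libraries enclosed all 4 ST14low libraries, from the lowest value in replicate 3 to the highest in replicate 4. Its log2 fold change was -0.13 (SE 0.68; edgeR adjusted p = 0.965), and leaving out ST14high replicate 4 or 3 moved it to -1.19 or 0.22.

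Of the other Slc10a genes, Slc10a4 had no count. Slc10a3 and Slc10a7, relatives of the bile acid carriers, were at 28.0 ± 2.39 and 25.4 ± 1.03 CPM in ST14high and at 28.2 ± 7.45 and 23.0 ± 3.12 CPM in ST14low (mean ± SD, n = 4). The 95% interval of the log2 fold change ran from -0.19 to 0.47 for Slc10a7 and from -0.45 to 0.43 for Slc10a3. Slc10a5 was at 6.40 ± 1.55 and 5.13 ± 2.38 CPM. Slc10a6 (chromosome 5, 104034729 to 104058422), a carrier of sulfated steroids, had the smallest unadjusted p of the carriers. It was at 9.09, 0.835, 0.756 and 2.23 CPM in the ST14high libraries and 0.213, 0.256, 1.08 and 0.344 CPM in the ST14low libraries, with 300 counts over the 8. The populations overlapped: ST14low replicate 3 lay above ST14high replicates 2 and 3. That overlap rests on 7 counts in ST14low replicate 3, with 21 and 32 counts in ST14high replicates 2 and 3. The log2 fold change was 2.90 (SE 0.98; edgeR adjusted p = 0.396) and 1.57 without ST14high replicate 1, the highest library. DESeq2's adjusted p was 0.0954, and its call came and went with single libraries: 0.0227 without ST14high replicate 3 and 0.0252 without ST14low replicate 3 (2.69% and 2.18% of all genes called there), but 0.531 without ST14high replicate 1.

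The carriers known from the hepatocyte membrane were low, and Slc10a1 and Slco1a1 shared their lowest and highest libraries while Slco1b2 shared neither. Slco1b2 (chromosome 6, 141578038 to 141635156) was at 1.58, 10.2, 0.472 and 0.0594 CPM in the ST14high libraries and 10.7, 4.66, 6.33 and 1.59 CPM in the ST14low libraries. The value in ST14high replicate 4 rests on 2 counts, in the library that held the most Slc10a1, with 729 counts. Slco1a1, an organic anion carrier of the same cluster on chromosome 6, was at 1.64, 5.01, 0 and 8.10 CPM in the ST14high libraries and 6.48, 4.56, 4.94 and 0.875 CPM in the ST14low libraries. It had no count in ST14high replicate 3, the deepest library, and its highest value in ST14high replicate 4. The log2 fold changes were -0.92 (SE 1.15) for Slco1b2 and -0.18 (SE 1.15) for Slco1a1, with edgeR adjusted p of 0.802 and 0.969. Single libraries decide both values. Without ST14high replicate 2 that of Slco1b2 was -3.10, where DESeq2 also called the gene (adjusted p = 0.0493, with 1.91% of all genes called). Without ST14low replicate 1 it was -0.44, and without ST14high replicate 4 that of Slco1a1 was -0.93.

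Hepatocyte markers moved with some of these values and not with others. The median of the 20 hepatocyte genes was 30.6, 68.6, 21.6 and 94.9 CPM in ST14high and 89.8, 127, 69.7 and 37.4 CPM in ST14low. ST14high replicate 3 was lowest in this median, as it was in Slc10a1 and Slco1a1. ST14high replicate 4 was the second highest in it, highest in Slc10a1 and Slco1a1 and lowest in Slco1b2. Albumin was at 9374 and 10271 CPM in these 2 libraries. All 20 hepatocyte genes had a log2 fold change below 0, with a median of -0.46 and 0 called by edgeR or DESeq2, where 50.3% of all genes were above 0. Without ST14high replicate 1, 3 of the 20 were above 0 and the median was -0.32. The part of hepatocyte RNA in the carrier values was not tested.

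**Figure D3:**
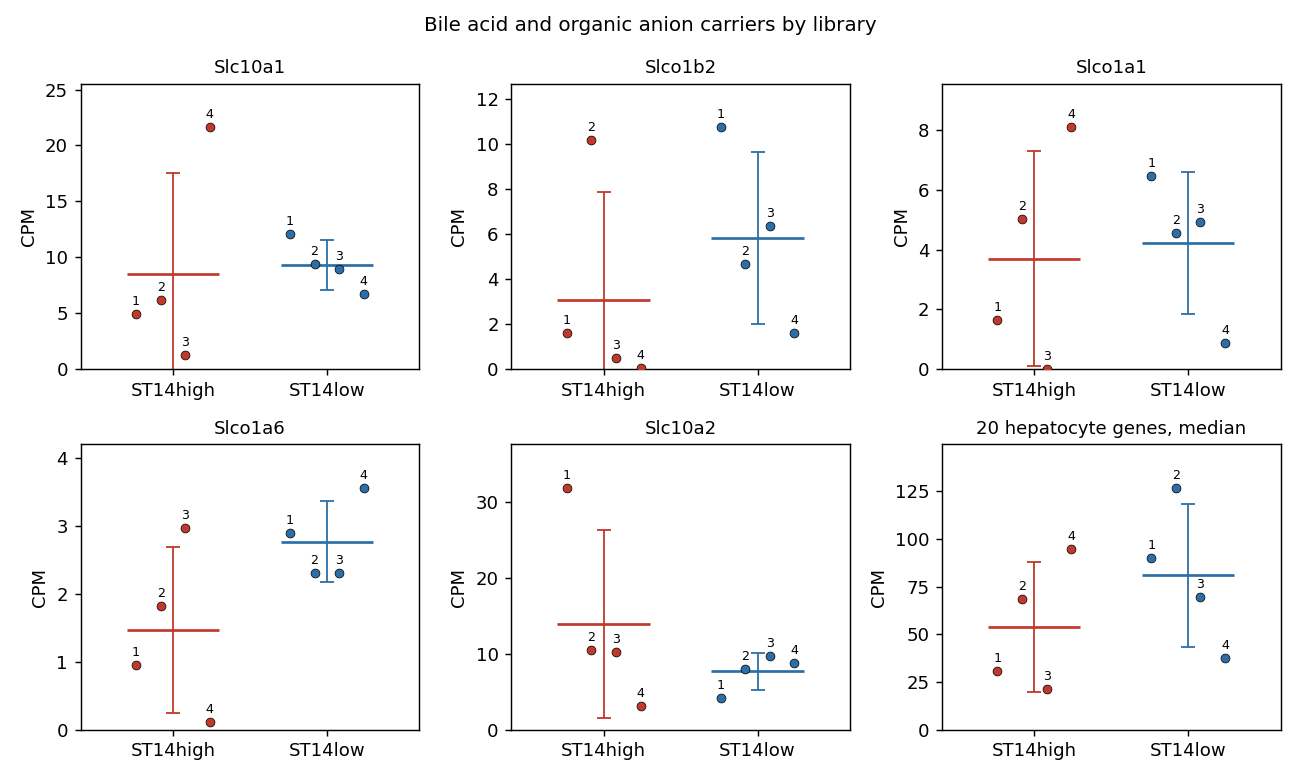
CPM of Slc10a1, Slco1b2, Slco1a1, Slco1a6 and Slc10a2, and the median CPM of 20 hepatocyte genes, in each library; numbers are replicates, bars are the mean and SD of 4 libraries, cut at 0. Replicate 4 of ST14high is highest for Slc10a1 and lowest for Slco1b2, and replicate 3 is the lowest ST14high library for Slc10a1, Slco1a1 and the hepatocyte median.

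The other Slco1a genes of the chromosome 6 cluster, Slco1a4, Slco1a5 and Slco1a6, were low throughout. Slco1a4 and Slco1a5 had no count in ST14high replicates 3 and 4 and at most 1.15 and 0.973 CPM elsewhere. Slco1a6 was at 0.947, 1.83, 2.98 and 0.119 CPM in the ST14high libraries and 2.90, 2.31, 2.31 and 3.56 CPM in the ST14low libraries. These genes are close paralogs whose reads could have been split between them, and Slco1a5 overlaps Iapp on the opposite strand. Their 3 log2 fold changes were below 0, from -1.66 to -0.91, with SE of 0.76 to 1.34, and none passed the test.

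The Slco genes at high level were Slco3a1 and Slco2a1. Slco3a1, a widely expressed organic anion and prostaglandin carrier, was at 201, 259, 328 and 215 CPM in the ST14high libraries and 231, 254, 236 and 216 CPM in the ST14low libraries. Its values overlapped, and the log2 fold change of 0.10 had a 95% interval from -0.27 to 0.47. Slco2a1 (the prostaglandin carrier PGT; chromosome 9, 102910818 to 102990179) was at 356, 66.0, 45.0 and 51.0 CPM in the ST14high libraries and 63.0, 53.1, 56.6 and 47.2 CPM in the ST14low libraries. Only ST14high replicate 1 lay outside the 45.0 to 66.0 CPM of the other 7 libraries. The log2 fold change was 1.23 (SE 0.62; edgeR adjusted p = 0.561) and -0.028 without that library. Slco2b1 was at 3.55 ± 2.60 and 2.67 ± 0.974 CPM and Slco4c1 at 2.62 ± 1.00 and 1.38 ± 0.513 CPM in ST14high and ST14low. Slco4a1, a thyroid hormone carrier named here after its values were seen, was not tested; it was at 12.7 CPM in ST14high replicate 1 and at most 1.55 CPM elsewhere.

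Slco2a1 was 1 of 5 tested carriers that ST14high replicate 1 held at over 2 times any other library (12.8%, where 6.72% of all tested genes were). The others were Slc10a2, Slc10a6, Slc16a3 and Slc16a5. ST14high replicate 1 was the highest of the 8 libraries for 16 of 39 carriers (41.0%), where it was for 23.0% of all genes. Slc16a5, a monocarboxylate family member, was at 48.9, 4.69, 7.42 and 4.69 CPM in the ST14high libraries and 6.14, 5.79, 8.02 and 4.10 CPM in the ST14low libraries. Without the first library the populations overlapped throughout, and the log2 fold change of 1.45 became -0.089. Slc16a3 (MCT4), which exports lactate from glycolytic cells, was at 12.9, 2.35, 1.37 and 1.75 CPM in the ST14high libraries and 1.62, 1.54, 0.926 and 1.19 CPM in the ST14low libraries. Its log2 fold change was 1.77 (SE 0.75; edgeR adjusted p = 0.504) and 0.45 without ST14high replicate 1. All 16 mesenchymal and mesothelial genes were above 0 in every library. In ST14high replicate 1 they summed to 3569 CPM, where the other 7 held 461 to 1237 CPM. All 4 ST14high libraries lay above the 4 ST14low libraries in this sum. Much of the ST14low sums came from Gpm6a, Rgs5 and Reln, at 214, 351 and 137 of 886 CPM in ST14low replicate 3. The median of the 16 genes was 33.7 to 168 CPM in the ST14high libraries and 6.89 to 13.8 CPM in the ST14low libraries. Of the 16 genes, 14 had a log2 fold change above 0, with a median of 2.54 over the 16 (1.38 without ST14high replicate 1). The 2 below 0 were Rgs5 (-0.47) and Reln (-0.075). EdgeR called 0 of the 16, and 8 were wholly higher in ST14high (4.09% of all genes). DESeq2 gave an adjusted p to 14 of them, not to Col1a2 and Col3a1, and called 7 higher (1.72% of all genes called). The endothelial genes summed to 1445 CPM in ST14high replicate 1 and 1300.2 CPM in ST14low replicate 3, and 8 of the 13 were highest in the former. Yet 12 of the 13 had a log2 fold change below 0, with a median of -0.40 and 0 called by edgeR or DESeq2. Without ST14high replicate 1, 0 of 13 were above 0 (47.8% of all genes), with a median of -1.78. The part of those cells in the 5 carriers, and in Slc16a1, was not tested. ST14high replicate 2, with the next highest acinar sum, was the second highest library for Slco2a1 (66.0 CPM), Slc10a2 (10.5 CPM) and Slc16a3 (2.35 CPM), and not for Slc16a5 (4.69 CPM) or Slc10a6 (0.835 CPM).

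**Figure D4:**
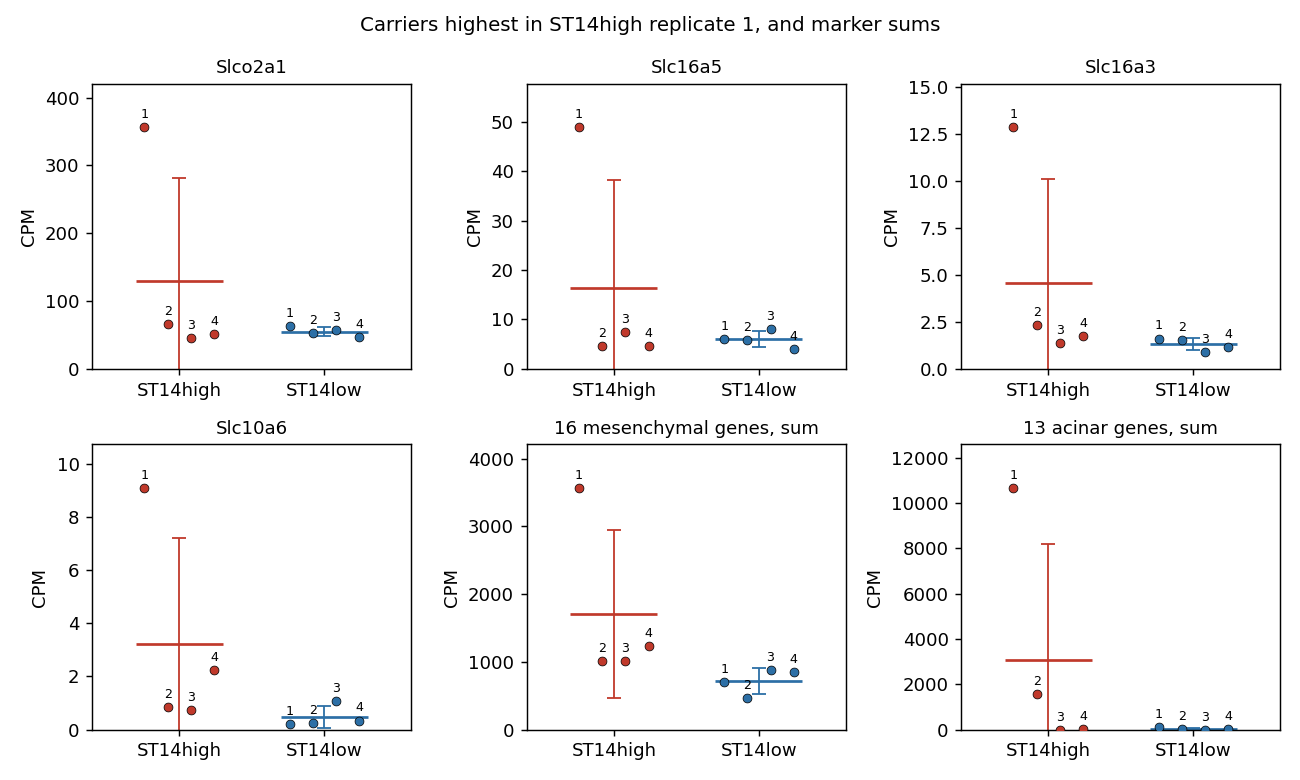
CPM in each library of Slco2a1, Slc16a5, Slc16a3 and Slc10a6, with the summed CPM of 16 mesenchymal and mesothelial genes and 13 pancreatic acinar genes; numbers are replicates, bars are the mean and SD of 4 libraries, cut at 0. In all 6 panels ST14high replicate 1 is the highest library.

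Slc16a was the family with the most tested members, 13 of 14, and it held 9 of the 22 carriers with a mean of at least 10 CPM. Slc16a1 (MCT1, a lactate and pyruvate carrier; chromosome 3, 104442590 to 104462385) was at 143, 71.8, 76.5 and 70.9 CPM in the ST14high libraries and 58.6, 61.4, 56.6 and 66.0 CPM in the ST14low libraries. Every ST14high library lay above every ST14low library and ST14high replicate 1 was far above the rest. The log2 fold change was 0.57 (SE 0.23; edgeR adjusted p = 0.481) and 0.27 without that library. The exact permutation p was 0.0286, the smallest that 4 against 4 libraries can give, and 0.445 when adjusted over all genes. Slc16a7 (MCT2, a pyruvate carrier of high affinity) was at 15.8, 13.2, 13.6 and 11.5 CPM in the ST14high libraries and 10.6, 11.7, 8.64 and 8.63 CPM in the ST14low libraries, with only ST14high replicate 4 below the highest ST14low library. Its log2 fold change was 0.45 (SE 0.21; edgeR adjusted p = 0.530).

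**Figure D5:**
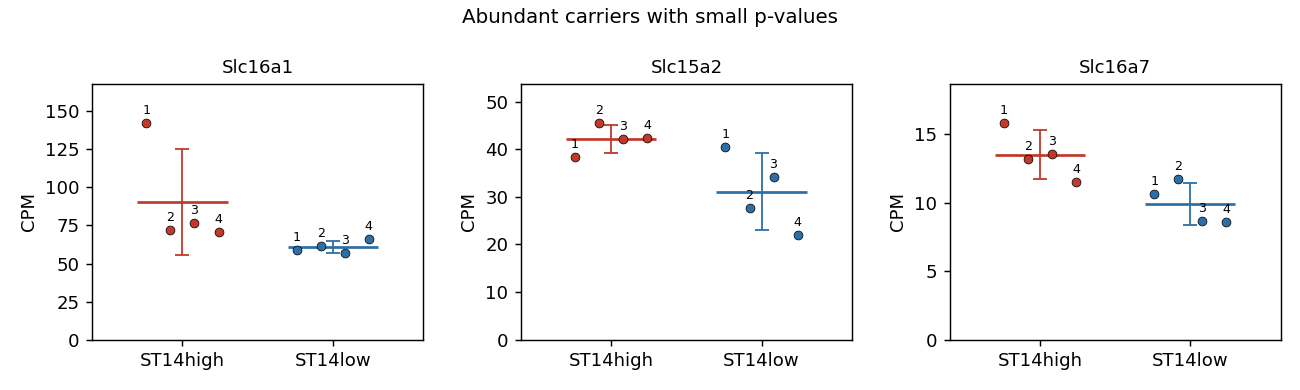
CPM in each library of Slc16a1, Slc15a2 and Slc16a7, carriers above a mean of 10 CPM and among the 6 with the smallest p; numbers are replicates, bars are the mean and SD of 4 libraries. Of the 3, the populations do not overlap in Slc16a1, and its replicate 1 of ST14high stands far above the rest.

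In the other Slc16a genes the populations overlapped. Slc16a12 (a creatine carrier) was at 166 ± 48.8 CPM on average in ST14high and 163 ± 27.2 CPM in ST14low, and Slc16a10 (TAT1, which moves aromatic amino acids and thyroid hormone) at 82.9 ± 19.8 and 89.7 ± 8.62 CPM. Their log2 fold changes had 95% intervals from -0.46 to 0.52 and from -0.50 to 0.27. Slc16a11 and Slc16a13, which lie next to each other on chromosome 11, were at 20.2 ± 4.63 and 16.4 ± 1.31 CPM in ST14high and at 19.7 ± 2.10 and 15.9 ± 2.53 CPM in ST14low. Slc16a6 was at 23.1 ± 6.25 and 19.0 ± 4.12 CPM. Slc16a4, Slc16a8 and Slc16a9 were each under 5 CPM in every library.

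Of the peptide carriers, Slc15a2 (PEPT2, the high-affinity peptide carrier, chromosome 16, 36750249 to 36785048) had the most counts. Per transcript length, Slc15a2 and Slc15a4 were close, at 11.4 ± 2.64 and 10.9 ± 2.14 RPKM (mean ± SD, n = 8). Their means were 13.1 and 9.66 RPKM in ST14high, and 9.76 and 12.1 RPKM in ST14low. Slc15a2 was at 38.4, 45.6, 42.1 and 42.5 CPM in the ST14high libraries and 40.6, 27.6, 34.1 and 21.9 CPM in the ST14low libraries. The ST14high libraries lay close together, and only ST14low replicate 1 reached their range. The log2 fold change was 0.44 (SE 0.19; edgeR adjusted p = 0.510), with 0.30 to 0.60 when 1 library was left out. Slc15a1 (PEPT1), its relative in the intestine, had 39 counts in all and was not tested. The lysosomal histidine and peptide carriers Slc15a4 and Slc15a3 did not pass the test, and their populations overlapped. Slc15a4 was at 28.2, 28.0, 22.1 and 16.03 CPM in the ST14high libraries and 29.9, 33.4, 27.6 and 25.1 CPM in the ST14low libraries, which gave a log2 fold change of -0.30 (SE 0.20; edgeR adjusted p = 0.649). Slc15a3 was at 4.16 ± 2.69 and 7.50 ± 3.49 CPM, lowest in ST14high replicate 3 at 0.779 CPM and highest in ST14low replicate 3 at 12.2 CPM. Macrophage and dendritic cell genes were lowest and highest in the same 2 libraries, with sums of 243 and 999.6 CPM. The medians of the 13 genes there were 0.260 and 51.2 CPM. Csf1r alone held 236 and 312 CPM of these sums. It was lowest in ST14high replicate 1, at 161 CPM, and not in ST14high replicate 3. Of the 13 genes, 3 were at 0 in ST14high replicate 3 (Vsig4, Timd4 and Itgax) and 0 in ST14low replicate 3. The part of these 13 genes in the Slc15a3 values was not tested. Slc15a3 overlaps Tmem132a on the opposite strand, and whether the counting used strand is not stated, so some reads may be shared.

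The Slc22a genes split into a few that were steady and a larger group near 0. Of 19 genes 8 were tested, and 6 of these had a mean of at least 10 CPM. Slc22a23, an orphan member, was the most counted, at 144, 108, 109 and 120.1 CPM in the ST14high libraries and 135, 98.8, 132 and 121 CPM in the ST14low libraries. Slc22a18, an imprinted gene of the family, was at 30.6 ± 3.40 and 31.1 ± 4.09 CPM, and Slc22a15 at 31.0 ± 3.81 and 32.6 ± 6.24 CPM. For these 3 genes the populations overlapped and the 95% intervals lay between -0.46 and 0.32. Slc22a17, a receptor for the iron-binding protein lipocalin 2, was at 32.6, 42.7, 60.4 and 47.5 CPM in the ST14high libraries and 36.8, 25.9, 39.5 and 36.1 CPM in the ST14low libraries. ST14high replicate 1 was the lowest of its group, and the log2 fold change was 0.41 (SE 0.21; edgeR adjusted p = 0.565) and 0.54 without it. Lcn2, which encodes lipocalin 2, was at 98.4 ± 23.4 and 75.0 ± 18.7 CPM, with a log2 fold change of 0.39 (SE 0.21; edgeR adjusted p = 0.582).

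Slc22a5 (OCTN2, the carnitine carrier), Slc22a4 (OCTN1, which carries ergothioneine) and Slc22a21 lie side by side on chromosome 11, between 53678043 and 53841592. Slc22a5 was at 44.0, 29.5, 26.5 and 18.2 CPM in the ST14high libraries and 29.7, 27.3, 33.9 and 31.0 CPM in the ST14low libraries, and Slc22a4 at 25.8, 13.6, 12.7 and 9.50 CPM and 12.5, 5.84, 17.6 and 10.3 CPM. Both were highest in ST14high replicate 1 and lowest among the ST14high libraries in replicate 4. On the log2 scale ST14high differed from ST14low by -0.046 (SE 0.24) and 0.42 (SE 0.39), and -0.30 and 0.061 without ST14high replicate 1. Slc22a21 was at 4.11 ± 1.79 and 3.79 ± 1.77 CPM. As paralogs of close sequence these 3 may share reads. Slc22a3 (OCT3) and Slc22a7 (OAT2, known from hepatocytes) had 57 and 52 counts over the 8 libraries. The kidney carriers of organic anions and cations were near or at 0: Slc22a6 had no count, Slc22a8 2 counts, Slc22a2 88 counts and Slc22a12 1 count in all.

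The other genes of bile acid handling, a list of 28 fixed by pathway, gave no call. All 28 were in the files and 24 were tested. EdgeR called 0 of them, and DESeq2 called 0. At an unadjusted p under 0.05, 1 of 24 was higher in ST14high and 2 were lower, where 6.89% and 2.68% of all genes were; the lower ones, Cyp7b1 and Abcb4, are named here after their values were seen. Cyp7b1, an oxysterol hydroxylase of bile acid synthesis, was at 6.25, 9.91, 8.52 and 9.47 CPM in the ST14high libraries and 13.8, 13.5, 13.4 and 11.1 CPM in the ST14low libraries. The populations did not overlap in Cyp7b1, 1 of the 24 genes, where 6.42% of all genes did not overlap. Its log2 fold change was -0.60 (SE 0.22; edgeR adjusted p = 0.455). Abcb4, the phospholipid exporter of the bile canaliculus, was at 7.01 ± 2.06 and 11.4 ± 2.42 CPM. Of the 24, 6 had a log2 fold change above 0 and 18 below, the median being -0.20, where 50.3% of all genes were above 0. Without ST14high replicate 1, 10 of 24 were above 0 (47.8% of all genes), with a median of -0.18. Among those of highest mean level were the bile acid and conjugate exporter Abcc3, the receptor Fgfr4, the multidrug exporter Abcb1a, the transcription factor Hnf4a and the exporter Abcc4. Abcc3 (MRP3) was at 333, 283, 371 and 274 CPM in the ST14high libraries and 388, 404, 389 and 334 CPM in the ST14low libraries, which gave a log2 fold change of -0.26 (SE 0.14; edgeR adjusted p = 0.575). Abcb1a was at 182 ± 38.9 and 148 ± 33.4 CPM, Abcc4 at 72.2 ± 8.19 and 83.8 ± 17.3 CPM, Fgfr4 at 160.1 ± 34.6 and 166 ± 12.2 CPM, and Hnf4a at 123 ± 31.8 and 124 ± 20.8 CPM. The following were named after their values were seen. The basolateral bile acid exporter OSTα-OSTβ, listed in the files as Osta and Ostb, had at most 0.126 and 0.344 CPM in any library. Abcb11, the bile salt export pump of hepatocytes, was at 3.22, 8.35, 1.42 and 3.03 CPM in the ST14high libraries and 12.96, 7.38, 8.18 and 2.81 CPM in the ST14low libraries. Gpbar1 (TGR5, the membrane bile acid receptor) had 9, 9, 7 and 0 counts in ST14high replicates 1 to 4 and 0 in each ST14low library, too few to test.

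A list of 23 partner proteins and other organic ion carriers gave no call either. Of 21 tested, 5 had a log2 fold change above 0 and 16 below, the median being -0.090, where 50.3% of all genes were above 0. The median lay between -0.19 and 0.0089 with 1 library left out, above 0 without ST14low replicate 2. EdgeR and DESeq2 each called 0, and 0 reached an unadjusted p under 0.05. Bsg (basigin), the chaperone that carries MCT1 and MCT4 to the membrane, was at 682, 779, 945 and 903 CPM in the ST14high libraries and 883, 1361, 535 and 676 CPM in the ST14low libraries. The scaffold Slc9a3r1 (NHERF1) was at 231 ± 36.8 and 225 ± 54.5 CPM, the pyruvate dehydrogenase subunit Pdha1 at 205 ± 44.6 and 187 ± 2.23 CPM, the lactate dehydrogenase subunit Ldha at 103 ± 22.1 and 108 ± 42.5 CPM, and the nucleoside carrier Slc29a1 at 94.3 ± 3.09 and 106 ± 38.0 CPM. Bsg and Ldha were highest in ST14low replicate 2, at 1361 and 171 CPM, where Slc16a1 was at 61.4 CPM.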

How the data were processed

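Libraries were made from sorted cells in TRIzol with an Illumina TruSeq kit, per the labels' protocols. CASAVA 1.8.2, Bowtie 1.0.0 and the build mm9 are named without a role, per the submitters' processing notes; the counting program, annotation release and strand setting are not stated in the sources used here. The authors deposited raw counts and RPKM values, per the file headers, for 26005 RefSeq transcripts. The transcript with the most counts was kept for each symbol. Counts of all 8 libraries were fitted with edgeR 4.0.16 (R 4.3.3): TMM factors, filterByExpr, the quasi-likelihood test with the population as the only term, Benjamini-Hochberg adjustment over 13749 genes, threshold 0.05. DESeq2 1.42.0, limma 3.58.1 and exact permutation over 70 arrangements served beside it. Library pairs differed by a chi-square per degree of freedom of 17.8 to 352, so no pair was 1 library sequenced again. This does not show whether separate libraries came from the same cells or RNA. The procedure was tested on simulated counts with the same dispersion for every gene and no distant library. That test does not show how the procedure performs on libraries such as these. CPM and RPKM (mean ± SD) describe levels; RPKM entered no test. Members and lists were chosen with earlier results of these data known. Named with values were carriers with a mean of at least 10 CPM, past the threshold, without overlap, among the 6 smallest p-values, or chosen by role, and of each pathway list the 6 called or of highest mean. Python 3.11.15, pandas 2.3.3 and matplotlib 3.10.9 were used. The values of a few genes, carriers among them, are not reported here and are left out of the plots; they remain in every fit, count and median.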

Additional observations from a re-analysis of the deposited data

Results flagged for a closer look

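Among 56 sets of 4 libraries (28 carriers in each population), 6 held 1 library far from the other 3 by Dixon's gap ratio. The nominal rate by chance is about 1 in 20, for independent sets of normal values. These sets share the same libraries, and the share over all genes was not computed, so the count shows no excess particular to carriers. In 4 of them the distant library was ST14high replicate 1: Slco2a1 at 356 CPM (nearest library 66.0 CPM), Slc16a1 at 143 CPM (nearest 76.5 CPM), Slc16a5 at 48.9 CPM (nearest 7.42 CPM) and Slc16a3 at 12.9 CPM (nearest 2.35 CPM). Slco1b2 stood at 10.2 CPM in ST14high replicate 2, where the nearest of its group was at 1.58 CPM. Slc10a6 stood at 1.08 CPM, from 7 counts, in ST14low replicate 3, the shallowest library, where the nearest was at 0.344 CPM.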

How the results depend on the processing

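With edgeR, 0 carriers were called under the other factors and filters, in the block fit or with any 1 library left out. The same held with the transcript of longest genomic span kept for each symbol. DESeq2 and voom called 0 on all libraries. DESeq2 without each library in turn, added after seeing the data, called 0 to 1 carriers; over all genes it called 274, 260, 367 and 222 without ST14high replicates 1 to 4 and 150, 165, 296 and 157 without ST14low replicates 1 to 4, where DESeq2 called 234 on 8 libraries and edgeR 0. Same-numbered libraries did not deviate together (r of 0.0521, 0.0522, -0.125 and 0.00533, with 0 of 4 closest to its own number). These values cannot show whether same-numbered libraries share animals, which the labels do not give. With the replicate number as a block, edgeR called 2 genes, 0 of them carriers. The carriers with an unadjusted p under 0.05, 5 of 39, numbered 3 at 5 CPM in 4 libraries, 1 with the block and 2 to 9 with 1 library left out. The median of Slco genes was -0.84 with voom and -0.998 with the replicate block. With no low-count filter it was -0.051, and at 5 CPM in 4 libraries it changed sign to 0.101. That of Slc16a genes was 0.048 at 5 CPM in 4 libraries, and 0.096 to 0.39 (edgeR) and 0.090 to 0.38 (DESeq2) with 1 library left out. Log2 fold changes near 0 changed sign: Slc10a3 (0.125 with voom, 0.023 with the block), Slc22a18 (0.021 with voom) and Slc16a12 (-0.0059 with the block). With 1 library left out, sign changes came within -1.19 to 0.22 for Slc10a1, -0.13 to 0.135 for Slc10a3, -0.089 to 1.76 for Slc16a5, -0.071 to 0.18 for Slc16a11, -0.131 to 0.185 for Slc16a12, -0.047 to 0.115 for Slc16a13, -0.20 to 0.037 for Slc22a15, -0.090 to 0.038 for Slc22a18, -0.119 to 0.036 for Slc22a23, -0.30 to 0.127 for Slc22a5, -0.93 to 0.23 for Slco1a1, -0.028 to 1.5 for Slco2a1 and -0.072 to 0.191 for Slco3a1. The cause was not tested. What depth adds to the spread of carriers under 5 CPM was not tested; carriers at 0 were most in the 2 deepest libraries.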
